A study of Homo sapiens with 38 samples.

Results

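Ras-induced senescence was compared with proliferation in IMR90 cells that carried no hairpin against RB (RB-intact cells). The comparison used the 12 of 38 microarrays titled as senescent (6 arrays) or growing (6 arrays) with the empty MLP vector, shp107 or shp130 in experiment 1, and the hairpin was kept as a block in the fit. IMR90 is a line of normal human lung fibroblasts with a limited lifespan. The study measured gene expression in these cells with Affymetrix arrays after knockdown of RB, p107 or p130 by a short hairpin RNA, in growing cells, in cells kept in low serum, at confluence, and in cells made senescent by ras. Experiment 1 held 32 arrays and experiment 2 held 6, with 2 arrays in each of 19 groups.

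The 6 senescent arrays were of cells that expressed ras and carried the vector, shp107 (a hairpin against p107, the product of RBL1) or shp130 (against p130, the product of RBL2), 2 arrays each. The 6 growing arrays were of cells with the same vector and hairpins in growth medium, again 2 arrays each. Further groups were used only to place this comparison. These were 2 senescent and 2 growing arrays of shRB cells (a hairpin against RB), 6 arrays of low-serum cells (a condition in which fibroblasts stop dividing) with the vector, shp107 or shp130, and 2 senescent and 2 growing vector arrays of experiment 2. The 2 senescent shRB arrays of experiment 2 entered the spread estimated in its fit, and their levels are given for a few genes. Not given in the sources used here are which ras gene was expressed, for how long, and whether growing cells carried an empty counterpart of its construct. Nothing in the labels says whether the paired arrays of a group came from different cultures, and the p-values therefore cover the spread between arrays alone, which may be technical. The number of arrays limits the precision of every value.

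Strong ras signalling in normal fibroblasts sets off a lasting arrest called oncogene-induced senescence. In this state the RB family and its E2F partners hold down genes for DNA synthesis and mitosis, and CDK inhibitors such as p16, p15 and p21 keep RB in its active form. Senescent fibroblasts also secrete cytokines, chemokines, growth factors and proteases, a programme known as the senescence-associated secretory phenotype, which depends on NF-kB and C/EBP beta. Lamin B1 is lost from their nuclei, and chromatin is reorganised.

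Values are log2 expression levels as deposited, so a difference of 1 stands for a 2-fold change. The array median over all probe sets lay between 3.27 and 3.41, and a level near it is close to background, so a change measured against such a level may understate the true one. A gene was tested where its log2 level exceeded 5 on at least 2 arrays of experiment 1, which left 8511 of 19775 genes. A gene near background in senescent or in growing cells passed only through other arrays where it was higher. For such genes, counts of calls, list medians and lack of overlap follow in part from this filter. A change is called at an adjusted p under 0.05 in limma with Benjamini-Hochberg adjustment over these 8511 genes, and ± after a change is its standard error (SE).

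The hairpin targets were examined first. RBL2 had log2 levels of 4.75 and 4.64 on the senescent shp130 arrays, against 7.68 and 7.47 on the senescent vector arrays. In growing cells it had 5.19 and 5.49 with shp130, against 7.72 and 7.67 with the vector, so that the shp130 arrays were low in both states. RBL1 was dim, at 3.16 and 3.26 on the senescent shp107 arrays against 3.44 and 3.24 on the senescent vector arrays, so its senescent level says little about the shp107 label. In growing cells it had 3.18 and 3.95 with shp107, against 4.38 and 4.24 with the vector. In low serum it had 2.95 and 3.085 with shp107, against 4.65 and 3.99 with the vector. The shp107 arrays were thus the lower ones in growing and low-serum cells, at dim levels, and these differences were not tested. RB1 had lowest, median and highest levels of 9.04, 9.38 and 9.90 on the 6 senescent arrays, against 9.39, 9.57 and 10.08 on the 6 growing arrays. These ranges overlapped, and RB1 was not called (-0.19 ± 0.18, adjusted p = 0.39). The shRB arrays had RB1 at 4.49 and 3.64 in senescent cells and 5.58 and 5.19 in growing cells, below all 12 RB-intact arrays.

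The RAS family was measured as a check on the state, although a transgene that lacks the probed end of the transcript is not seen by these probe sets. HRAS had 8.65, 8.78 and 9.02 (lowest, median, highest) on senescent arrays and 7.95, 8.22 and 8.80 on growing arrays. The ranges overlapped at growing vector replicate 2, and the rise of 0.55 ± 0.14 (adjusted p = 0.00675) was not called in vector cells alone (0.17). RALA, which encodes a small GTPase acting downstream of RAS, rose by 1.06 ± 0.10 (adjusted p = 1.75e-06), with no overlap between states. RRAS2, a relative of the RAS genes, changed by -1.88 ± 0.16 (adjusted p = 7.21e-07). Of 6 RAS family genes tested, 3 rose and 3 fell, with a median change of -0.01 that was 0.16 after centring each array on its median. With that centring 3 were called higher and 1 lower, and with quantile normalization 3 and 2.

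Among the 12 arrays, a first principal component with 71.9% of the variance separated the 6 senescent from the 6 growing arrays. Senescent shp107 replicate 2 stood apart, with a mean correlation of 0.9764 to the other senescent arrays, where the remaining 5 had 0.9855 to 0.9878. All results here include this array. Without it, counts of calls became 1917 higher and 2715 lower for senescent against growing cells, and 2267 and 3046 against low serum. Among 11 fibroblast markers, VIM, COL1A1 and PDGFRA were not called and 8 were called lower, and the log2 of their summed level was 14.23 to 14.88 on senescent arrays against 14.94 to 15.21 on growing arrays. None of 9 epithelial and 6 blood markers passed the filter on dim genes, with log2 summed levels of 6.23 to 6.48 and 5.52 to 5.71 on senescent arrays, against 6.29 to 6.44 and 5.48 to 5.57 on growing arrays. The endothelial markers summed to 6.97 to 7.42 on senescent arrays and 7.66 to 8.86 on growing arrays, and TEK, a receptor of angiopoietins, was called lower among the 2 tested. In such bulk RNA, fewer cells of a type and less RNA per cell cannot be told apart.

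Senescent and growing cells differed in 4418 of 8511 tested genes. In senescent cells 1816 genes were called higher (21.3% of those tested) and 2602 lower (30.6%), and 620 and 1091 of these changed at least 2-fold. The median change of all 8511 genes was -0.09. At least 16-fold, 56 genes were higher and 51 lower. Senescent arrays all lay above growing arrays for 996 genes (11.7%) and all below for 1581 (18.6%). Of the called genes, 4319 changed the same way with the vector, shp107 and shp130 taken alone. They were called on the mean of these same 3 changes, so a shared sign is largely set by the selection. In each of the 3 populations alone, 1441 genes were called with the same sign. Higher genes made up 41.1% of the calls on the deposited scale, 49.6% after quantile normalization (2236 higher, 2275 lower) and 56.6% after median centring (2566 higher, 1968 lower), where centring moved every change up by 0.17. The balance of rises and falls thus depends on the scaling, and most changes described below are larger than this shift. Without senescent shp107 replicate 2, the counts were 1917 higher and 2715 lower.

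**Figure D1:**
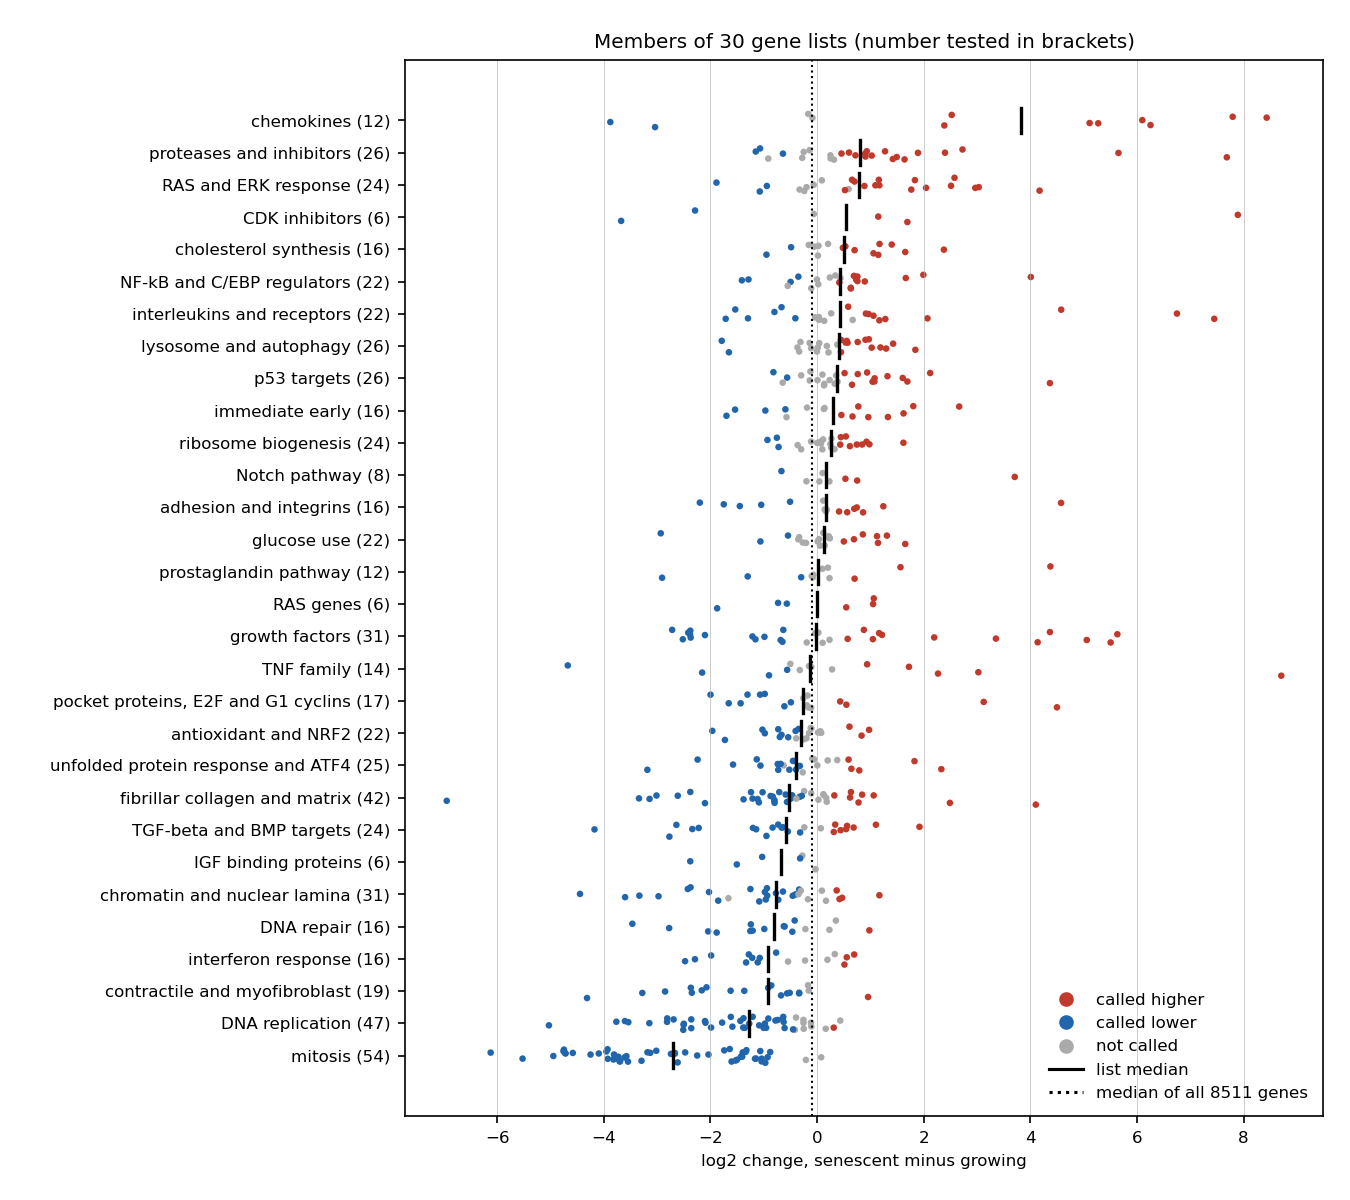
Log2 change (senescent minus growing, x axis) of every tested member of 30 gene lists (y axis, number tested in brackets), with the list median as a black bar and the median of all 8511 genes as a dotted line. Chemokines reach the highest median (3.82) and mitosis genes the lowest (-2.71).

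The plot of gene lists sets out the pattern that the following paragraphs describe. Cell division genes lie far to the left as a block, with 52 of 54 mitosis genes lower and none higher. Secreted inflammatory factors spread far to the right, but single members of the same lists, such as CCL2, CXCL12 and TNFSF4, lie well to the left. Most other lists have members on either side of the dotted line. Counts in every list stand beside the shares of all tested genes, of which 21.3% rose and 30.6% fell.

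The cell cycle brakes did not move as a group. Of 6 genes in the CDK inhibitor list, 3 rose and 2 fell (median 0.54). CDKN2B, which encodes the INK4 inhibitor p15, had 10.21, 10.74 and 11.39 (lowest, median, highest) on senescent arrays, against 2.60, 2.76 and 3.44 on growing arrays. It was close to background on every growing array and rose 238-fold (7.89 ± 0.17, adjusted p = 4.94e-12), by 7.96, 8.17 and 7.55 with the vector, shp107 and shp130.

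CDKN1A, which encodes the p53 target p21, had 11.57, 12.04 and 12.60 on senescent arrays and 9.99, 10.39 and 10.51 on growing arrays, and rose by 1.69 ± 0.13 (adjusted p = 3.44e-07). CDKN2A, which encodes p16 and ARF, had 8.36, 9.18 and 9.37 on senescent arrays, against 7.76, 7.92 and 8.24 on growing arrays. Its rise was 1.15 ± 0.17 (adjusted p = 8.92e-05), the states did not overlap, and senescent shp107 replicate 2 was the lowest senescent array. CDKN1B, which encodes p27, moved the other way. It had 6.14, 7.17 and 7.75 on senescent arrays and 9.08, 9.38 and 9.61 on growing arrays, a called change of -2.29 ± 0.24 (adjusted p = 5.68e-06). CDKN3 fell as well (-3.68 ± 0.17, adjusted p = 3.74e-09), but this gene encodes a phosphatase that acts on CDKs and is known as a proliferation-linked transcript. CDKN1C, which encodes p57, was not called (-0.06 ± 0.13, adjusted p = 0.705).

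Of 17 pocket protein, E2F and G1 genes tested, 4 rose and 8 fell (median -0.26). Their share of rises is near the 21.3% of all tested genes, of which 30.6% fell. E2F7, an atypical E2F that represses transcription and is a p53 target, had 10.65, 11.17 and 11.46 on senescent arrays, against 6.27, 6.49 and 7.20 on growing arrays. No growing array came near the senescent ones, and the rise was 4.50 ± 0.14 (adjusted p = 1.08e-10). The cyclin D2 gene CCND2 rose by 3.12 ± 0.35 (adjusted p = 1.1e-05). Cyclin D1, a growth factor and RAS target encoded by CCND1, rose by 0.43 ± 0.12 (adjusted p = 0.0108), and was not called with the vector or shp107 alone (0.24 and 0.46). CDK2, CDK6 and CCNE2, which drive entry into S phase, fell by 1.66, 1.31 and 2.00 on the log2 scale (adjusted p = 1.11e-05, 4.17e-05 and 0.000132). CDK4 overlapped between states at 8.25, 8.90 and 9.22 on senescent arrays and 9.21, 9.51 and 9.67 on growing arrays, with a called change of -0.61 ± 0.16 (adjusted p = 0.00582).

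Mitosis genes fell almost without exception. Of 54 tested, 52 were called lower and 0 higher by limma, with a median change of -2.71 where all genes had -0.09, and all 6 senescent arrays lay below all 6 growing arrays for 49 of them. At an unadjusted p under 0.05 the counts were 0 higher and 52 lower, and the 2 genes not called were ECT2 and BUB3. Members near background in senescent cells, such as PRC1 and MKI67, passed the filter through arrays where they were higher, growing arrays among them. The counts, the median and the lack of overlap therefore follow in part from the filter. NUSAP1, a spindle microtubule protein, had 3.70, 4.63 and 5.09 on senescent arrays and 10.41, 10.63 and 10.95 on growing arrays. The fall of -6.12 ± 0.23 (adjusted p = 5.13e-10) is 69.8-fold. PRC1, which bundles microtubules of the spindle midzone, changed by -5.53 ± 0.16 (adjusted p = 6.54e-11) and CEP55, which acts in the final cut between daughter cells, by -4.95 ± 0.26 (adjusted p = 1.07e-08). CDK1, the kinase of mitotic entry, changed by -4.25 ± 0.20, its cyclin partner gene CCNB1 by -3.82 ± 0.17, and CDC20, an activator of the anaphase-promoting complex, by -3.70 ± 0.32. MKI67, which encodes the proliferation marker Ki-67, was dim on this array, at 3.41, 3.63 and 4.09 on senescent arrays and 4.52, 4.75 and 5.49 on growing arrays, and changed by -1.17 ± 0.15 (adjusted p = 2.76e-05). CKS2, a CDK-binding subunit, overlapped between states and is described with the hairpins.

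DNA replication genes fell too, to a smaller extent. Of 47 tested, 37 fell and 1 rose (median change -1.27), and 31 lay below growing cells on all arrays. TOP2A, the topoisomerase that untangles DNA before mitosis, had 4.51, 4.78 and 5.12 on senescent arrays, against 9.48, 9.79 and 10.30 on growing arrays, a change of -5.03 ± 0.16 (adjusted p = 1.27e-10). GMNN, the licensing inhibitor geminin, changed by -3.77 ± 0.28 (adjusted p = 2.35e-07). TYMS, which makes thymidylate, had 6.72, 7.29 and 8.0 on senescent arrays and 10.80, 10.96 and 11.19 on growing arrays. Its change was -3.60 ± 0.20 (adjusted p = 1.9e-08). The helicase subunit gene MCM6 changed by -2.81 ± 0.17 (adjusted p = 3.79e-08), and PCNA, the sliding clamp, by -1.09 ± 0.14 (adjusted p = 2.53e-05). The single riser was ORC5, an origin recognition subunit, at 0.31 ± 0.12 (adjusted p = 0.0481), which was not called with the vector, shp107 or shp130 alone. PCLAF, a PCNA-binding factor outside this list, changed by -5.31 ± 0.26 (adjusted p = 7.12e-09).

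The chromatin and lamina list followed division genes in part, with 20 of 31 members lower and 4 higher (median -0.77). LMNB1, which encodes lamin B1, had 3.61, 4.49 and 5.24 on senescent arrays, against 7.45, 7.71 and 8.41 on growing arrays. Senescent arrays were all low and the change was -3.33 ± 0.23 (adjusted p = 9.94e-08). The DNA-bending protein gene HMGB2 changed by -4.45 ± 0.44, UHRF1, which guides maintenance DNA methylation, by -3.60 ± 0.20, the remodeller gene HELLS by -2.98 ± 0.22, and EZH2, the Polycomb methyltransferase, by -2.03 ± 0.26 (adjusted p = 3.34e-06, 1.9e-08, 2.35e-07 and 2.81e-05). JMJD1C, a demethylase family gene, rose by 1.17 ± 0.15 (adjusted p = 3.53e-05). Of 16 DNA repair genes, 12 fell and 1 rose (median -0.81). The fall was largest for RAD51AP1, a recombination factor (-3.47 ± 0.26, adjusted p = 3.11e-07), and the riser was the damage kinase gene ATM (0.98 ± 0.23, adjusted p = 0.00345).

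Promoter sequences were examined because division genes moved together and known elements bear on that class. RefSeq promoters of GRCh38.p14 (250 bases before to 50 after the start) were available for 7123 of the tested genes. The CHR element TTTGAA, bound by the MuvB complex with B-MYB, FOXM1 or p130, was searched on both strands. It was found in the promoters of 31 of 44 mitosis genes (70.5%), against 4 of 41 DNA replication genes (9.76%), 14.5% of all tested genes, 18.4% of genes called lower and 13.4% of genes called higher. For E2F the forms TTTGGCGC and TTTCCCGC were searched likewise, and 17 of 41 DNA replication genes (41.5%) held either, against 2 of 44 mitosis genes (4.55%) and 4.52% of all tested genes. A match is a description of letters and not proof of a site, and a promoter without a match may hold another form. The stretches below run 5′ to 3′ on the strand of the gene within the 250 bases before the start site, with the match in capitals. They come from PRC1 at chr15:90994536-90994645 (minus strand), CCNB2 at chr15:59105036-59105145 (plus strand), and CDC20 at chr1:43358871-43358980 (plus strand) for the CHR, and from MCM6 at chr2:135876444-135876553 (minus strand), PCLAF at chr15:64381442-64381551 (minus strand) and HELLS at chr10:94545678-94545787 (plus strand) for E2F, where capitals on the opposite strand read GCGGGAAA or GCGCCAAA.
PRC1: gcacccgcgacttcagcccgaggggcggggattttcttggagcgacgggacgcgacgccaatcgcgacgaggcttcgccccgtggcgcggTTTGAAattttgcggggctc
CCNB2: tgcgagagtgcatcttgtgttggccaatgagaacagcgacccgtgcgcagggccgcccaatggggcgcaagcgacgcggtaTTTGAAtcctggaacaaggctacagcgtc
CDC20: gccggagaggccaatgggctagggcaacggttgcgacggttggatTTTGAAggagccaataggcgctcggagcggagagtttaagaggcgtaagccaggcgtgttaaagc
MCM6: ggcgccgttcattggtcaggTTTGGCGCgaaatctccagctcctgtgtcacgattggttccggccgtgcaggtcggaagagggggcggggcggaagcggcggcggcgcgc
PCLAF: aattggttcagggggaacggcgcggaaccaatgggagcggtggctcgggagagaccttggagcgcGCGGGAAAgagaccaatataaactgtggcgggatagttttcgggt
HELLS: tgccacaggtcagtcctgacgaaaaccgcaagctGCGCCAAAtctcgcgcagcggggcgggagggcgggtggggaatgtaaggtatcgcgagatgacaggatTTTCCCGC

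Chemokines had the highest median change of all lists. Of 19 on the array, 12 passed the filter on dim genes, and of these 8 rose, 2 fell and 2 were not called (median change 3.82). The risers were CXC chemokines that attract neutrophils through CXCR2, together with CXCL10 and CCL20, and all 8 were above growing cells on every array. Members near background in growing cells, such as CXCL5, passed the filter only through other arrays where they were high. The counts, the median and the lack of overlap therefore follow in part from the filter. CXCL5 had 11.92, 12.22 and 12.43 on senescent arrays, against 3.38, 3.69 and 4.50 on growing arrays. It was near background on growing arrays and rose 346-fold (8.43 ± 0.17, adjusted p = 2.54e-12), by 8.48, 8.90 and 7.92 with the vector, shp107 and shp130. CXCL3 and CXCL2 rose by 7.79 ± 0.20 and 6.25 ± 0.19 (adjusted p = 1.76e-11 and 7.11e-11), and CCL20, which recruits cells through CCR6, by 6.10 ± 0.28 (adjusted p = 3.72e-09). CXCL6 rose by 5.11 ± 0.35 (adjusted p = 1.27e-07).

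Some of these genes were already high on part of the growing arrays. CXCL8, which encodes interleukin 8, had 12.71, 12.79 and 12.94 on senescent arrays, close to the highest value of 13.66 on the 12 arrays. On growing arrays it was 11.51 and 8.92 with the vector, 7.70 and 10.60 with shp107 and 11.42 and 11.54 with shp130. The rise of 2.52 ± 0.54 (adjusted p = 0.00173) was therefore uneven, at 2.55, 3.75 and 1.28 with the vector, shp107 and shp130. CXCL1 had 11.46, 11.71 and 11.99 on senescent arrays, and on growing arrays 8.41 and 4.64 with the vector, 3.69 and 5.28 with shp107 and 7.92 and 8.79 with shp130. Growing vector replicate 1 and both growing shp130 arrays were again the high ones, and the rise was 5.27 ± 0.69 (adjusted p = 3.76e-05). CXCL10, an interferon-induced chemokine, rose by 2.39 ± 0.68 (adjusted p = 0.0103), with senescent shp107 replicate 1 at 9.54 and the other senescent arrays no higher than 6.05.

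The chemokines CCL2 and CXCL12 went the other way. CCL2, a monocyte attractant, had 10.73 and 8.34 on senescent vector arrays, 7.74 and 6.15 with shp107 and 6.72 and 5.76 with shp130, against 10.88, 11.42 and 12.15 (lowest, median, highest) on growing arrays. Every senescent array lay below every growing array, and the change was -3.88 ± 0.56 (adjusted p = 9.17e-05). CXCL12, a ligand of CXCR4, changed by -3.04 ± 0.29 (adjusted p = 2.11e-06), while the CXCR4 gene itself rose from background by 6.10 ± 0.38 (adjusted p = 4.57e-08).

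The NF-kB site form GGAATTTCC, searched on both strands, lay in the promoters of 7 of 10 tested chemokines with a promoter (CXCL1, CXCL2, CXCL3, CXCL5, CXCL6, CXCL8 and CXCL10), against 0.688% of all tested genes, 1.34% of genes called higher and 0.277% of genes called lower. It was found in 5 of 18 NF-kB and C/EBP regulators (27.8%), in 0 of 17 interleukins and receptors, IL1A, IL1B and IL6 among them, and in 0 of 44 mitosis genes. Only this exact form was searched, so a promoter without a match may hold an NF-kB site of another form. The 7 chemokines include relatives with closely similar stretches (CXCL1, CXCL2 and CXCL3, and CXCL5 and CXCL6), so they are not independent cases. The 6 stretches shown are from the CXC cluster on chromosome 4 with the match in capitals, since these neighbours rose together. They are CXCL8 at chr4:73740458-73740567, CXCL6 at chr4:73836568-73836677 and CXCL1 at chr4:73869283-73869392 on the plus strand, and CXCL5 at chr4:73998678-73998787, CXCL3 at chr4:74038690-74038799 and CXCL2 at chr4:74099196-74099305 on the minus strand. Probe sets for such near-identical neighbours may share signal, and the values of CXCL1, CXCL2 and CXCL3 are uncertain to that extent.
CXCL8: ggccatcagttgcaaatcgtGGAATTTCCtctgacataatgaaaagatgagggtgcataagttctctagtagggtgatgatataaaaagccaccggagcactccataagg
CXCL6: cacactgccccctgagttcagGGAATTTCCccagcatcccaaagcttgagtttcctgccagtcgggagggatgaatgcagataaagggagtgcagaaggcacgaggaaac
CXCL1: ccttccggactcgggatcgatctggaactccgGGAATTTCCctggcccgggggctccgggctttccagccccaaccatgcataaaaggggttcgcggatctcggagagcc
CXCL5: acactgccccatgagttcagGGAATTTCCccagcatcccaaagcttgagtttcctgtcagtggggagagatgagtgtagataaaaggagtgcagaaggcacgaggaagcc
CXCL3: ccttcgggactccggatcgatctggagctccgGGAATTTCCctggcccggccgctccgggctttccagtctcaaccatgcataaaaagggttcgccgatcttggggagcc
CXCL2: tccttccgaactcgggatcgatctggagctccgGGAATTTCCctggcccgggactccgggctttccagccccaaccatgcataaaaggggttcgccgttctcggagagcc

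Of 22 interleukin and receptor genes, 10 rose and 6 fell (median change 0.42). IL1A, whose product sits on the cell surface and acts upstream of the secretory phenotype, had 10.20, 10.78 and 11.36 on senescent arrays and 3.04, 3.43 and 3.62 on growing arrays. It rose 175-fold (7.45 ± 0.18, adjusted p = 1.03e-11). IL1B had 12.69, 12.86 and 13.04 on senescent arrays, against 4.67, 6.01 and 8.04 on growing arrays, and rose by 6.75 ± 0.48 (adjusted p = 1.74e-07). IL13RA2, a decoy receptor for interleukin 13, rose by 4.58 ± 0.51 (adjusted p = 9.94e-06).

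IL6, a main cytokine of senescent fibroblasts, was high in senescent cells at 10.71, 10.90 and 11.96. On growing arrays it was 10.81 and 7.61 with the vector, 6.83 and 8.23 with shp107 and 10.10 and 10.32 with shp130. Growing vector replicate 1 reached the lower senescent arrays, so the states overlapped. The called rise of 2.07 ± 0.54 (adjusted p = 0.00653) was 2.30, 3.39 and 0.52 with the vector, shp107 and shp130, and it was not called in vector cells alone (adjusted p = 0.0566), in shp130 cells alone (adjusted p = 0.655), or without the 4 shp107 arrays (change 1.41, a setting chosen after seeing the data). IL33, an alarmin, rose by 1.28 ± 0.27 (adjusted p = 0.0018). IL1R1, the signalling receptor of interleukin 1, fell by 1.72 on the log2 scale (adjusted p = 0.000253).

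In the TNF family, 5 of 14 rose and 4 fell, and their median change was -0.13 (0.04 after median centring). The share that fell is near the 30.6% of all tested genes, of which 21.3% rose. TNFSF15, a ligand of the death domain receptor DR3, had the largest rise among all genes named here. It had 11.64, 11.85 and 12.49 on senescent arrays and 3.10, 3.21 and 3.41 on growing arrays, a rise of 8.71 ± 0.14 (adjusted p = 4.08e-13), or 418-fold. TNFSF4, which encodes OX40 ligand, fell to 3.49, 3.75 and 3.99 on senescent arrays, against 7.60, 8.54 and 8.79 on growing arrays. The change was -4.68 ± 0.17 (adjusted p = 3.36e-10).

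Genes of NF-kB and C/EBP signalling rose or were not called in most cases. Of 22 tested, 11 rose and 4 fell (median 0.43). ICAM1, an adhesion molecule and NF-kB target, rose by 4.01 ± 0.32 (adjusted p = 4.17e-07), and TNFAIP3, the feedback inhibitor A20, by 1.66 ± 0.24 (adjusted p = 8.28e-05). RELA, the p65 subunit, rose by 0.69 ± 0.14 (adjusted p = 0.00107). CEBPB, which encodes C/EBP beta, was high in both states, at 11.80, 11.98 and 12.04 on senescent arrays and 11.30, 11.52 and 11.84 on growing arrays. Its rise of 0.41 ± 0.11 (adjusted p = 0.00685) was not called in any of the 3 cell populations alone. NFKBIA, the inhibitor I kappa B alpha, was not called (0.00 ± 0.17, adjusted p = 0.992). VCAM1, another adhesion molecule, was dim and overlapped, with a called change of -1.41 ± 0.41 (adjusted p = 0.0117).

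**Figure D2:**
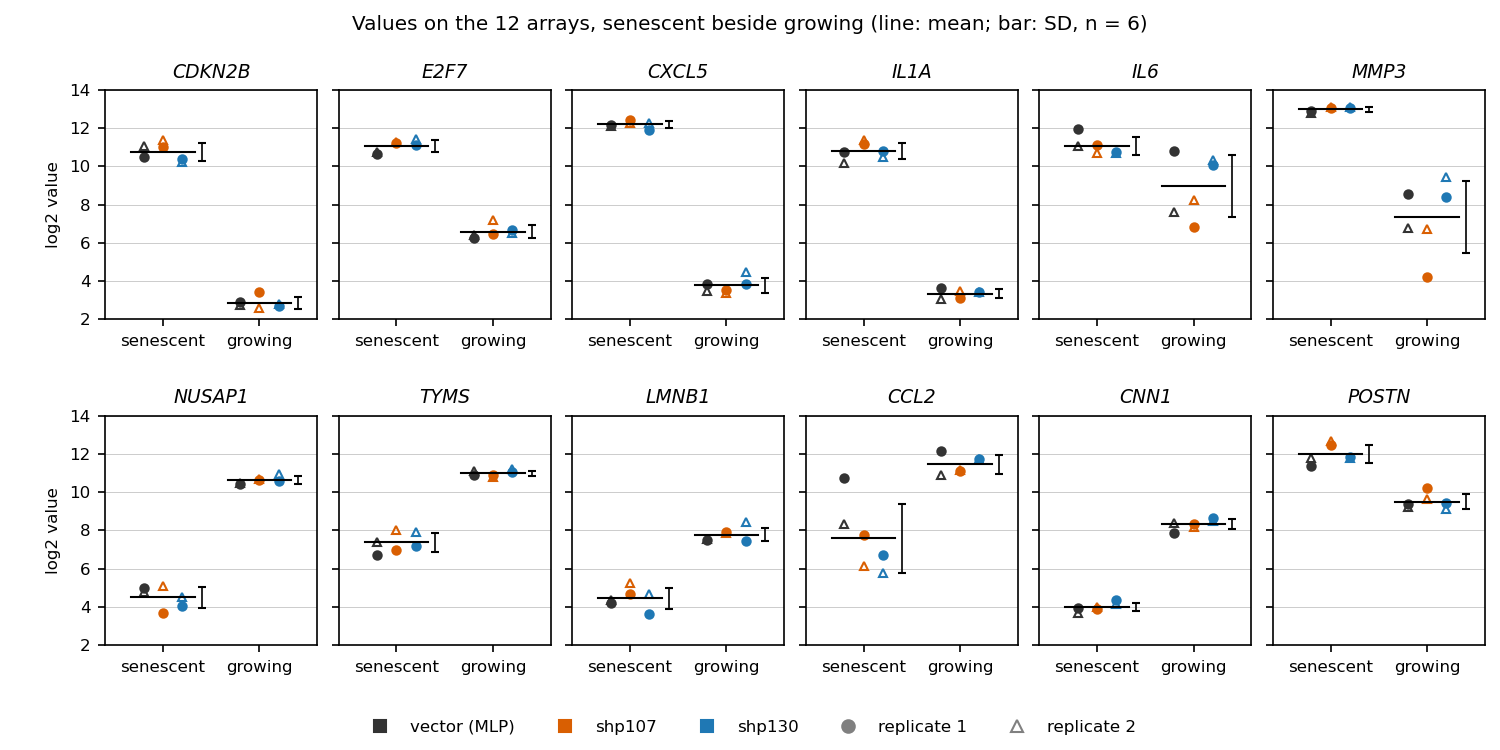
Log2 values (y axis) of 12 genes on the 6 senescent and 6 growing arrays, coloured by vector or hairpin, with circles for replicate 1, triangles for replicate 2, lines for means and bars for SD (n = 6). For CDKN2B, E2F7, CXCL5 and IL1A the states are far apart, while growing IL6 and MMP3 spread over several log2 units.

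The plot of array values shows the same split for 12 genes. Growing levels of IL6 and MMP3 were high on growing vector replicate 1 and on both growing shp130 arrays, and lowest on growing shp107 replicate 1. Senescent levels of MMP3 were almost equal, at 12.81, 13.05 and 13.12, against 4.21, 7.58 and 9.43 on growing arrays, and MMP3 (stromelysin) rose by 5.65 ± 0.56 (adjusted p = 3.41e-06). The part of these growing levels in the changes was not tested.

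Of 26 proteases and inhibitors, 16 rose and 3 fell (median change 0.81). MMP10, a stromelysin relative, had 9.04, 10.89 and 12.27 on senescent arrays and 3.02, 3.11 and 3.49 on growing arrays. It rose 206-fold (7.68 ± 0.34, adjusted p = 3e-09). MMP1, interstitial collagenase, had 13.25, 13.39 and 13.57 on senescent arrays, near the top of the scale, against 11.36, 12.24 and 12.45 on growing arrays, and rose by 1.27 ± 0.16 (adjusted p = 3.38e-05). TIMP1, an inhibitor of these enzymes, rose by 0.46 ± 0.10 (adjusted p = 0.00258).

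Growth factor genes went both ways, with 12 of 31 higher and 13 lower (median -0.02, 0.15 after median centring). Among all tested genes 21.3% were higher and 30.6% lower. The EGF receptor ligand gene EREG had 10.79, 10.94 and 11.20 on senescent arrays. On growing arrays it was 4.46 and 4.14 with the vector, 3.78 and 4.48 with shp107 and 7.56 and 7.63 with shp130. The shp130 arrays were the high ones among growing cells, and the rise was 5.63 ± 0.46 (adjusted p = 5.38e-07). NRG1, another EGF family ligand, rose by 5.06 ± 0.28, ESM1, an endothelial proteoglycan gene, by 5.51 ± 0.27, GDF15, a stress-induced cytokine and p53 target, by 4.37 ± 0.23, and BMP2 by 4.14 ± 0.61 (adjusted p = 1.84e-08, 5.93e-09, 1.48e-08 and 0.000101). STC1, a secreted glycoprotein, rose by 2.20 ± 0.25 (adjusted p = 1.13e-05), while the Wnt antagonist gene DKK1 fell by 2.72 on the log2 scale (adjusted p = 1.28e-06). Among p53 targets, 12 of 26 rose and 2 fell (median 0.37), and MDM2, which targets p53 for degradation, was not called (-0.30 ± 0.17, adjusted p = 0.147).

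Most feedback genes of RAS and ERK signalling rose. Of 24 tested, 15 rose and 3 fell (median change 0.79). DUSP4, a nuclear phosphatase of ERK, had 7.62, 8.56 and 9.39 on senescent arrays and 4.14, 4.32 and 4.83 on growing arrays, and rose by 4.17 ± 0.21 (adjusted p = 7.21e-09). DUSP6, the cytoplasmic ERK phosphatase, had 11.40, 11.63 and 11.75 on senescent arrays and 9.26, 9.57 and 9.84 on growing arrays. It rose by 2.04 ± 0.12 (adjusted p = 2.08e-08). The Sprouty genes SPRY2 and SPRY4, whose products restrain receptor signalling to RAS, rose by 3.03 ± 0.11 and 2.58 ± 0.18 (adjusted p = 5.47e-10 and 1.17e-07), in no case with overlap between states. FOSL1, an AP-1 subunit that ERK stabilises, went against its list at -1.89 ± 0.20 (adjusted p = 7.74e-06). Of 16 immediate early genes 8 rose and 4 fell (median 0.30), among them EGR1 at 1.62 ± 0.22 (adjusted p = 5.63e-05).

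Most matrix and contractile genes fell. Of 42 matrix genes, 26 fell and 8 rose (median -0.53). COL15A1, a basement membrane collagen, had the largest fall of the genes named here, with 2.44, 3.30 and 3.69 on senescent arrays and 9.02, 9.98 and 11.39 on growing arrays. All senescent arrays were at background and the change was -6.95 ± 0.34 (adjusted p = 6.1e-09). DCN, which encodes decorin, and COL3A1, type III collagen, changed by -3.14 ± 0.21 and -2.10 ± 0.25 (adjusted p = 9.84e-08 and 2e-05). COL1A1, the main fibrillar collagen, had 11.61, 11.79 and 12.06 on senescent arrays and 11.91, 12.02 and 12.19 on growing arrays and was not called (-0.24 ± 0.11, adjusted p = 0.0859).

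Against this trend, COL10A1 and POSTN rose. COL10A1, a collagen known from hypertrophic cartilage, had 6.32, 7.67 and 9.07 on senescent arrays, against 3.43, 3.60 and 3.89 on growing arrays, and rose by 4.10 ± 0.30 (adjusted p = 1.83e-07). POSTN, which encodes periostin, had 11.38, 11.82 and 12.66 on senescent arrays, against 9.10, 9.40 and 10.22 on growing arrays. The states did not overlap, and the rise was 2.49 ± 0.14 (adjusted p = 1.78e-08).

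Of 19 contractile and myofibroblast genes, 16 fell and 1 rose (median -0.92). CNN1, the actin-binding protein calponin, had 3.68, 3.98 and 4.35 on senescent arrays and 7.88, 8.37 and 8.62 on growing arrays. Its change was -4.32 ± 0.12 (adjusted p = 3.52e-11), and was nearly equal with the vector, shp107 and shp130 (-4.33, -4.30 and -4.32). TAGLN and ACTA2, which encode SM22 and smooth muscle actin, changed by -2.35 ± 0.14 and -1.62 ± 0.13 (adjusted p = 2.38e-08 and 3.6e-07). Of 24 TGF-beta and BMP targets 14 fell and 8 rose (median -0.59), and the helix-loop-helix inhibitor genes ID2 and ID1 fell by 4.18 and 2.77 on the log2 scale (adjusted p = 3.44e-07 and 2.57e-05). Of 6 IGF binding protein genes 4 fell and 0 rose by limma, at an adjusted or an unadjusted p under 0.05, while 2 fell after median centring and 3 after quantile normalization, and IGFBP3 changed by -2.38 ± 0.20 (adjusted p = 7.97e-07). HEY1, a Notch target, rose by 3.71 ± 0.22 (adjusted p = 2.81e-08) among 8 Notch pathway genes, of which 3 rose and 1 fell. Over all tested genes, 21.3% rose and 30.6% fell.

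Prostaglandin, adhesion, interferon and lysosome genes each held members on either side. PTGS2, the inducible cyclooxygenase, had 11.31, 11.37 and 12.10 on senescent arrays, against 4.77, 7.73 and 8.68 on growing arrays, and rose by 4.38 ± 0.53 (adjusted p = 2.06e-05), while PTGER2, a receptor of prostaglandin E, changed by -2.91 ± 0.18 (adjusted p = 5.17e-08). Of 12 prostaglandin genes 3 rose and 3 fell (median 0.01), which is close to the shares of all tested genes that rose (21.3%) and fell (30.6%). L1CAM, a neural adhesion molecule, had 6.01, 7.60 and 8.07 on senescent arrays and 2.32, 2.62 and 3.07 on growing arrays, and rose by 4.58 ± 0.23 (adjusted p = 7.57e-09) among 16 adhesion genes, of which 7 rose and 5 fell. Of 16 interferon-stimulated genes 9 fell and 3 rose (median -0.92). IFI6, an interferon-induced mitochondrial protein, had 2.93, 3.53 and 3.93 on senescent arrays and 5.13, 5.57 and 5.71 on growing arrays, with a change of -1.99 ± 0.17 (adjusted p = 1.12e-06). Of 26 lysosome and autophagy genes 13 rose and 2 fell (median 0.41), led by MCOLN1 at 1.84 ± 0.17 (adjusted p = 1.95e-06), and the autophagy gene GABARAPL1 fell by 1.79 on the log2 scale (adjusted p = 3.49e-08).

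Several of the largest changes belong to none of these lists. SLC6A15, a transporter of branched-chain amino acids, had 11.69, 11.77 and 12.51 on senescent arrays, against 4.0, 4.31 and 5.0 on growing arrays, and rose 183-fold (adjusted p = 1.35e-11). EHF, an epithelial ETS transcription factor, rose by 7.39 ± 0.14 from background, although epithelial markers were near background in both states. GABRA2, a GABA receptor subunit, GAL, the neuropeptide galanin, MME, the surface peptidase neprilysin, and BCL2A1, an anti-apoptotic NF-kB target, rose by 7.17 ± 0.12, 6.80 ± 0.39, 6.40 ± 0.16 and 6.21 ± 0.20 (adjusted p = 4.08e-13, 2.46e-08, 1.53e-11 and 1.27e-10).

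The largest falls outside division and matrix included secreted and signalling genes. PTN, the growth factor pleiotrophin, had 4.61, 4.72 and 4.91 on senescent arrays, against 10.71, 11.18 and 11.84 on growing arrays. Its change was -6.44 ± 0.16 (adjusted p = 1.48e-11), or 87.1-fold lower. FGL2, a fibrinogen-like protein, ZFPM2, a GATA cofactor, GPRC5A, an orphan receptor, and CEMIP, a hyaluronan-degrading protein, changed by -6.16 ± 0.37, -5.57 ± 0.20, -5.45 ± 0.27 and -5.44 ± 0.28 (adjusted p = 3.27e-08, 3.78e-10, 6e-09 and 1.14e-08). LRRN3, EFEMP1, a fibulin, NTN4, which encodes netrin 4, and RPS6KA2, an ERK-activated kinase, changed by -5.25 ± 0.22, -5.21 ± 0.34, -4.97 ± 0.27 and -4.94 ± 0.18 (adjusted p = 1.51e-09, 7.77e-08, 1.45e-08 and 5.47e-10).

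The 3 RB-intact populations were then compared, to ask whether knockdown of p107 or p130 altered the senescent change. Few genes passed. The change with shp107 differed from that with the vector for 41 genes (0.482%), that with shp130 from the vector for 8 (0.094%), and that with shp130 from shp107 for 147 (1.73%), each with 2 arrays per group. At an unadjusted p under 0.05 these counts were 1029, 890 and 1703. With any 1 of the 12 arrays left out they ranged over 0 to 889, 0 to 16 and 0 to 1378, and the 889 and 1378 were without senescent shp107 replicate 1. Leaving out 1 array leaves a group of 1, which the fit assumes to vary like the other groups. Without senescent shp107 replicate 2, the array that stood apart, the counts were 82, 16 and 85.

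**Figure D3:**
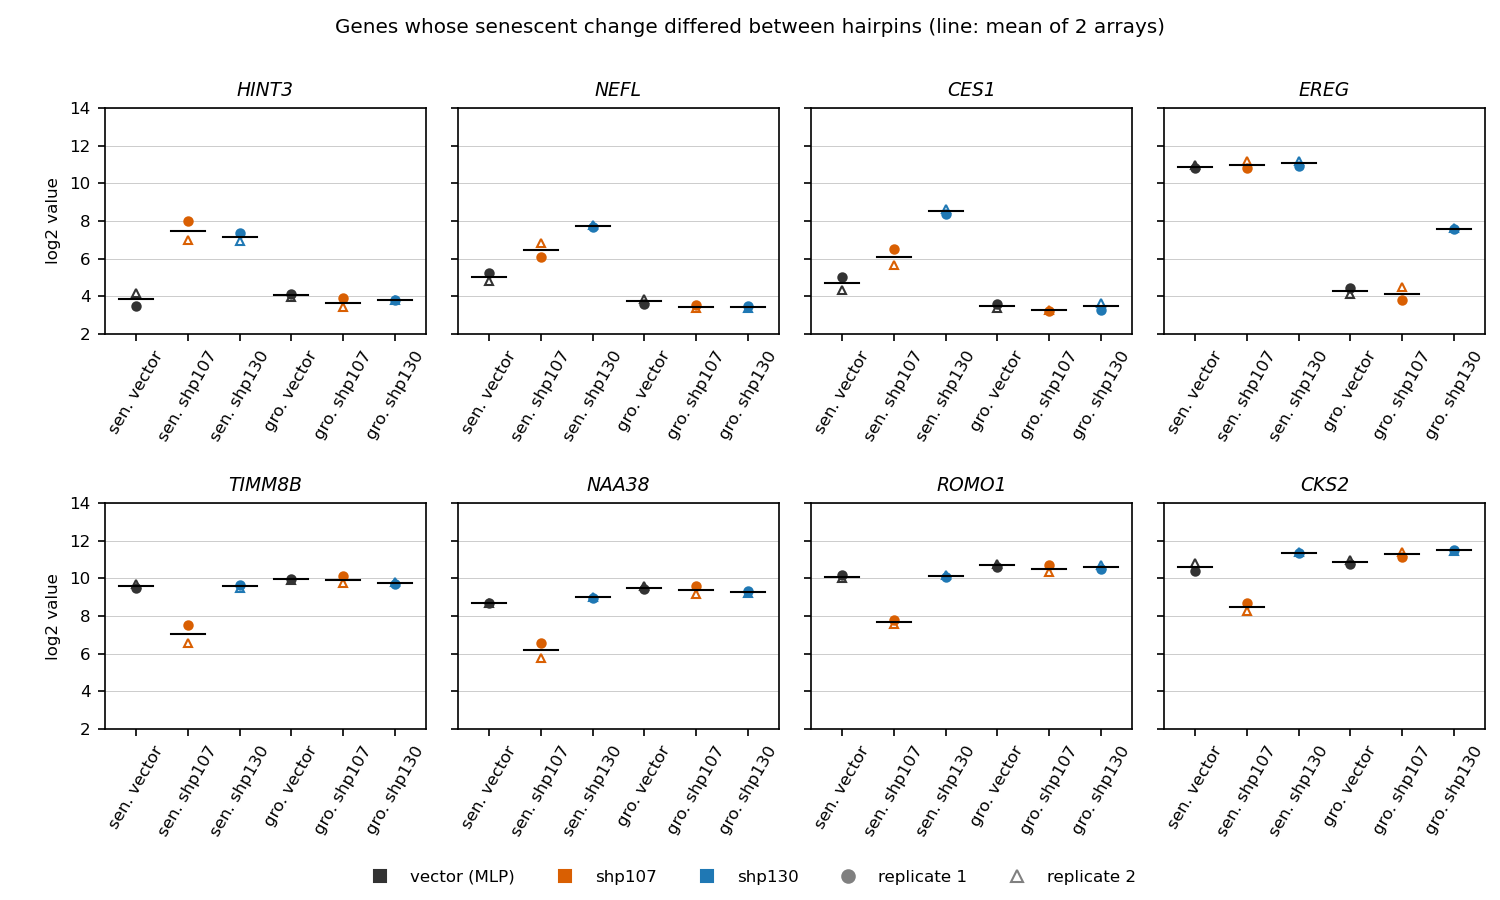
Log2 values (y axis) of 8 genes on the senescent (sen.) and growing (gro.) arrays of vector, shp107 and shp130 cells, with circles for replicate 1, triangles for replicate 2 and lines for the mean of 2 arrays. NEFL and CES1 are highest on senescent shp130 arrays, and TIMM8B, NAA38, ROMO1 and CKS2 are lowest on senescent shp107 arrays.

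In the plot of hairpin groups, 8 genes show the main forms of difference. CES1, a carboxylesterase, had 8.38 and 8.62 on senescent shp130 arrays, 6.50 and 5.66 with shp107 and 5.03 and 4.33 with the vector, against 3.22 to 3.64 over the growing arrays. Its change with shp130 exceeded that with the vector by 3.85 ± 0.43 (adjusted p = 0.00978). NEFL, a neurofilament subunit, had 7.68 and 7.77 on senescent shp130 arrays, 6.08 and 6.82 with shp107 and 5.22 and 4.80 with the vector, against 3.37 to 3.84 over the growing arrays. The shp130 arrays were highest and the vector arrays lowest, and the difference between shp130 and vector was 3.01 ± 0.36 (adjusted p = 0.00978). In the vector cells of experiment 2, CES1 had 6.92 and 6.64 on senescent and 3.85 and 3.68 on growing arrays, a change of 3.01 beside 1.19 in vector cells of experiment 1. NEFL had 6.95 and 6.87 on senescent and 2.89 and 3.01 on growing arrays there, a change of 3.97 beside 1.29 in experiment 1. NEFM, another neurofilament gene, differed by 1.90 ± 0.25 and TMEM154 by 2.78 ± 0.31 (adjusted p = 0.019 and 0.00978).

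HINT3, of the histidine triad family, rose with either hairpin and was not called with the vector in experiment 1. It had 7.99 and 6.97 on senescent shp107 arrays, 7.37 and 6.94 with shp130 and 3.50 and 4.17 with the vector, against 3.42 to 4.14 over the growing arrays. The change exceeded that of vector cells by 4.03 ± 0.48 with shp107 and 3.56 ± 0.48 with shp130 (adjusted p = 0.0151 and 0.019). It was called over the 3 populations together (2.33 ± 0.54, adjusted p = 0.00305), while the change in vector cells alone was -0.20. In experiment 2 it was called in vector cells too, with 5.93 and 6.67 on senescent and 4.87 and 4.89 on growing arrays (1.42 ± 0.24, adjusted p = 0.00202).

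EREG, CCNE2 and GBP1 changed differently with shp130 than with the vector, by -3.11 ± 0.36, -2.35 ± 0.34 and -2.23 ± 0.30 (adjusted p = 0.00978, 0.0303 and 0.019). For EREG this lay in the higher growing shp130 level given above. CCNE2, an E2F target that encodes cyclin E2, had 3.15 and 2.90 on senescent shp130 arrays against 6.48 and 6.05 on growing shp130 arrays, and 3.87 and 4.05 on senescent vector arrays against 4.96 and 4.72 on growing vector arrays, so it was both lower in senescent and higher in growing shp130 cells. GBP1, an interferon-induced GTPase, had 4.69 and 4.88 on senescent shp130 arrays, against 7.32 and 7.38 on senescent vector arrays, and 9.76 to 10.55 over the growing arrays.

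The shp107 differences included several genes that were low on both senescent shp107 arrays. TIMM8B, a mitochondrial import chaperone, had 7.51 and 6.57 on senescent shp107 arrays, 9.64 and 9.51 with shp130 and 9.48 and 9.69 with the vector, against 9.72 to 10.13 over the growing arrays. The shp107 arrays stood below the other 10, and the change differed from the vector by -2.54 ± 0.39 (adjusted p = 0.0244). NAA38, a subunit of a protein acetyltransferase, ROMO1, a mitochondrial membrane protein, and CKS2 differed by -2.36 ± 0.36, -2.24 ± 0.28 and -2.52 ± 0.31 (adjusted p = 0.0244, 0.0151 and 0.0151). Low levels of TIMM8B, NAA38 and ROMO1 were not confined to shp107. On the low-serum vector arrays they had 9.15 and 8.42, 8.53 and 7.905, and 8.88 and 8.54. Low-serum arrays with shp107 or shp130 had 9.63 to 9.93, 9.19 to 9.36 and 10.24 to 10.33. Growing replicate 2 of experiment 2 had 8.87, 7.66 and 9.50, against 9.72, 8.88 and 10.26 on replicate 1. CKS2 was not low with shp107 alone either, at 8.69 and 8.29 on senescent shp107 arrays and 8.84 and 8.77 on senescent shRB arrays of experiment 1. On low-serum arrays it had 8.99 and 9.03 with the vector, 9.56 and 9.70 with shp107 and 10.55 and 10.71 with shp130. Whether these genes vary together between arrays whatever the hairpin was not tested. ACP3, a phosphatase, and ESM1 rose further with shp107 than with the vector, by 2.71 ± 0.42 and 2.04 ± 0.33 (adjusted p = 0.0244 and 0.0282).

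Between the hairpins, CRCT1, an epidermal gene, rose further with shp130 than with shp107, by 4.21 ± 0.57 (adjusted p = 0.0124). GJB2, which encodes connexin 26, and CXCL6 rose less with shp130, with differences of -3.81 ± 0.68 and -2.62 ± 0.47 (adjusted p = 0.0297 and 0.0297), and LSM5, an RNA-binding subunit, fell less (2.85 ± 0.55, adjusted p = 0.0377). GJB2 had 4.88 and 6.18 on senescent shp130 arrays and 9.89 and 8.69 on senescent shp107 arrays. Senescent shp107 replicate 2 was the more extreme of the pair for LSM5 and for TIMM8B, and without it the difference was 2.05 for LSM5 between the hairpins and -2.07 for TIMM8B against the vector, both still called.

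RB-intact and shRB cells were compared next, to ask which parts of the senescent change differ when RB is depleted. The mean change of the 3 RB-intact populations exceeded that of shRB cells for 137 genes (1.61%) and was below it for 216 (2.54%), and 1621 genes had an unadjusted p under 0.05. The shRB change rests on 2 senescent and 2 growing arrays, and the counts ranged over 25 to 360 and 77 to 518 with 1 array left out, lowest without a growing shRB array. These arrays share the RB-intact samples with the main comparison, so values are given side by side. Without senescent shp107 replicate 2 the counts were 149 and 246.

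Several DNA synthesis genes stayed high in shRB senescent cells. Of 47 replication genes, 13 had a lower change in RB-intact cells and 0 a higher one by limma (18 and 2 at an unadjusted p under 0.05), with a median difference of -0.54. TYMS had 6.72 to 8.0 on RB-intact senescent arrays and 11.47 and 11.25 on shRB senescent arrays, where RB-intact growing arrays had 10.80 to 11.19 and shRB growing arrays 11.65 and 11.57. The shRB arrays were high in either state, and the difference of changes was -3.36 ± 0.37 (adjusted p = 0.000246). MCM6 differed by -2.60 ± 0.29, PCLAF by -3.95 ± 0.34, HELLS by -3.35 ± 0.49 and LMNB1 by -2.48 ± 0.42 (adjusted p = 0.000246, 0.000105, 0.00205 and 0.00685).

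CCNE2 changed in opposite directions. It had 2.90 to 4.05 on RB-intact senescent arrays and 9.55 and 8.56 on shRB senescent arrays, where RB-intact growing arrays had 4.72 to 6.48 and shRB growing arrays 6.48 and 7.51. The difference was -4.06 ± 0.41 (adjusted p = 0.000173). Mitosis genes did not follow replication genes, as 6 of 54 had a higher change in RB-intact cells and 0 a lower one by limma (23 and 3 at an unadjusted p under 0.05), with a median difference of 0.74. CCNB2 fell in both, to 3.60 to 4.84 on RB-intact senescent arrays and 3.28 and 3.86 on shRB senescent arrays, against 7.48 to 8.51 on RB-intact growing arrays and 9.18 and 8.79 on shRB growing arrays.

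**Figure D4:**
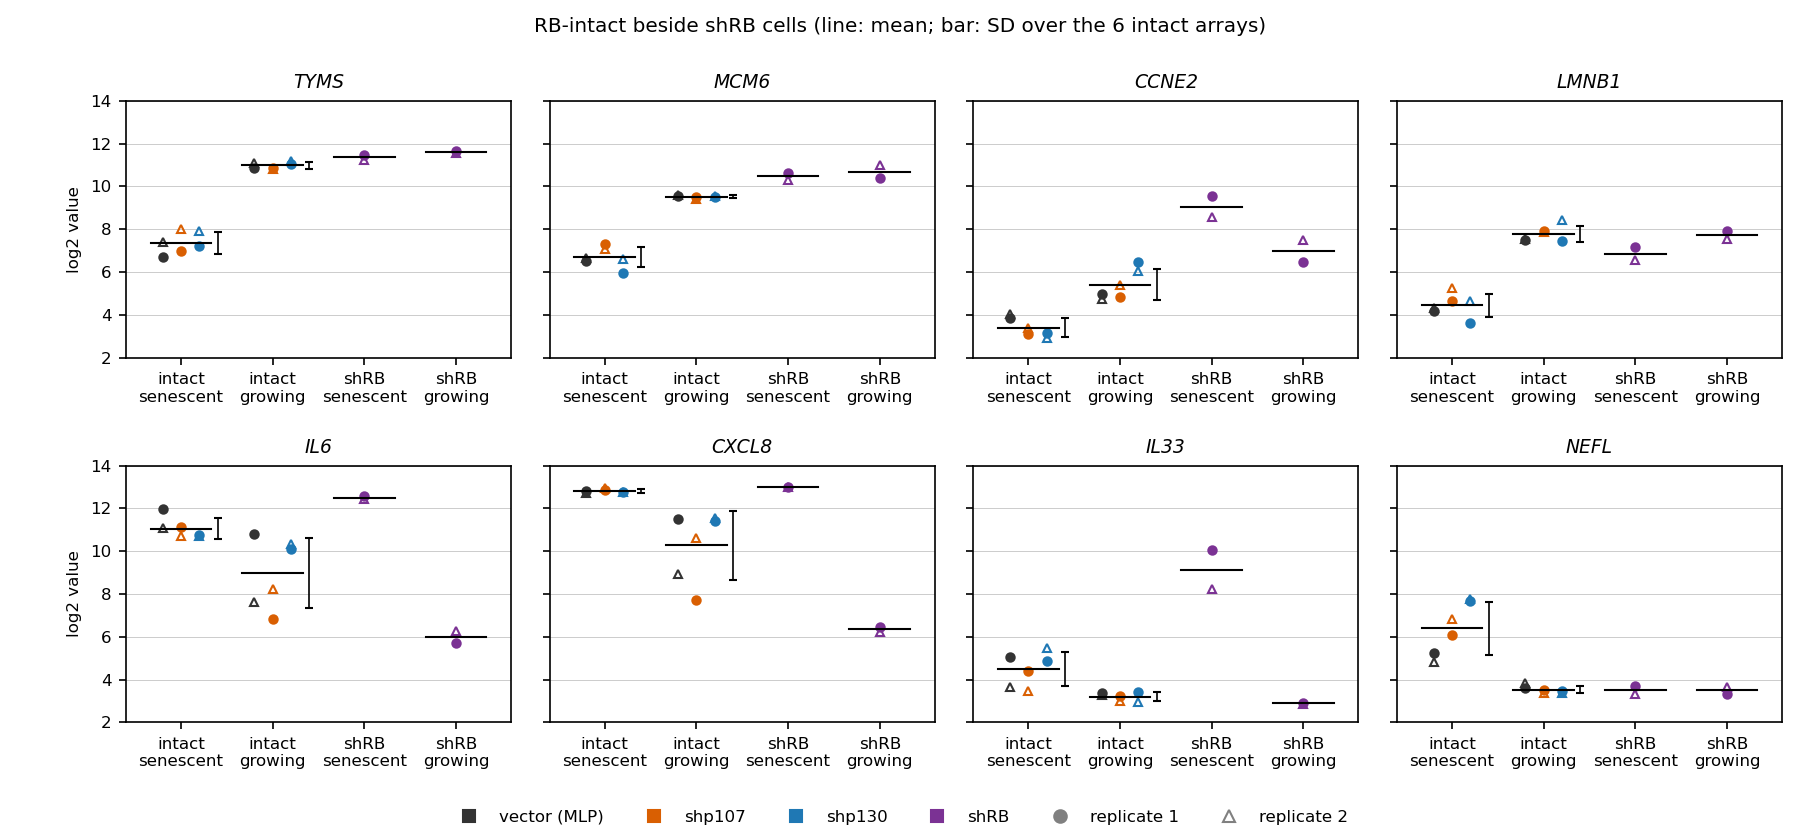
Log2 values (y axis) of 8 genes on senescent and growing arrays of RB-intact cells (vector, shp107, shp130) and of shRB cells, with circles for replicate 1, triangles for replicate 2, lines for means and bars for the SD of the 6 RB-intact arrays. TYMS and MCM6 stay high on shRB senescent arrays, and IL33 is highest there.

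The plot of RB-intact and shRB cells also holds inflammatory genes, where 7 of 12 chemokines had a lower change in RB-intact cells (median difference -2.42). For IL6, CXCL8 and CXCL1 this lay largely in growing cells. IL6 had 10.71 to 11.96 on RB-intact senescent arrays and 12.58 and 12.43 on shRB senescent arrays, but 6.83 to 10.81 on RB-intact growing arrays and 5.73 and 6.29 on shRB growing arrays. The differences of changes were -4.43 ± 0.85, -4.11 ± 0.90 and -3.93 ± 0.98 for IL6, CXCL8 and CXCL1 (adjusted p = 0.0122, 0.0232 and 0.0403), and each call was lost without either growing shRB array and with vector cells alone as the RB-intact cells.

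IL33 and SERPINB4 differed in the senescent level itself. IL33 had 3.47 to 5.46 on RB-intact senescent arrays and 10.06 and 8.22 on shRB senescent arrays, against 2.94 to 3.43 on RB-intact growing arrays and 2.91 and 2.88 on shRB growing arrays. The difference was -4.97 ± 0.62 (adjusted p = 0.000574). SERPINB4, a squamous cell protease inhibitor, had 3.08 to 5.70 on RB-intact senescent arrays and 10.14 and 8.27 on shRB senescent arrays. It was not called in RB-intact cells (0.25 ± 0.32, adjusted p = 0.538), and the difference was -5.17 ± 0.69 (adjusted p = 0.000935). CXCL10 differed by -4.79 ± 1.11 (adjusted p = 0.0304).

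Other genes rose in RB-intact senescent cells and were not called higher in shRB cells. NEFL had 4.80 to 7.77 on RB-intact senescent arrays and 3.68 and 3.31 on shRB senescent arrays, a difference of 2.87 ± 0.29 (adjusted p = 0.000173), although with vector cells alone as the RB-intact cells it was 1.30 and not called. The histone gene H2BC4, the protocadherin gene PCDH9, DDIT4L, an inhibitor of mTOR signalling, and MCOLN1, a lysosomal calcium channel, differed by 2.69 ± 0.43, 2.92 ± 0.43, 2.69 ± 0.32 and 2.02 ± 0.28 (adjusted p = 0.00413, 0.0023, 0.000369 and 0.00154). H2BC4 had 6.35 to 8.03 on RB-intact senescent arrays and 4.36 and 4.11 on shRB senescent arrays, against 3.47 to 4.11 on RB-intact growing arrays and 3.30 and 3.27 on shRB growing arrays. GAS6, a ligand of TAM receptors, fell less in RB-intact cells, by 2.64 ± 0.47 (adjusted p = 0.00797). Experiment 2 held senescent but no growing shRB arrays, so it gives no shRB change. Its senescent shRB arrays had NEFL at 5.50 and 4.885, between its senescent (6.95, 6.87) and growing vector arrays (2.89, 3.01). H2BC4 also lay between, at 5.82 and 5.64, against 7.28 and 7.19, and 3.91 and 3.83. MCOLN1 had 5.575 and 5.79, against 7.42 and 7.12, and 5.80 and 5.66. GAS6 had 7.55 and 7.54 there, against 8.04 and 8.385 on senescent vector arrays. These levels were not tested.

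Senescent cells were also set directly against low-serum cells with the same vector and hairpins, since both states are arrests. The comparison uses the same 6 senescent arrays and no growing array. In senescent cells 2087 genes were higher (24.5%) and 2921 lower (34.3%). CDKN2B had 10.21 to 11.39 on senescent arrays, against 7.39 to 8.47 on low-serum arrays, so it was well above the growing range of 2.60 to 3.44 in both arrests and higher in senescence by 2.78 ± 0.16 (adjusted p = 2.51e-08). CDKN1B had 6.14 to 7.75 on senescent arrays and 10.25 to 10.74 on low-serum arrays, where p27 is known to accumulate in quiescent cells. The difference was -3.44 ± 0.21 (adjusted p = 3.08e-08).

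Mitosis genes had a median difference of -0.49 between the arrests, with 29 of 54 lower and 3 higher in senescence. Among all tested genes 34.3% were lower and 24.5% higher. CDK1 had 5.12 to 6.23 on senescent, 7.045 to 8.81 on low-serum and 9.52 to 10.69 on growing arrays. Low-serum cells were not tested against growing cells. CCNB1 and MKI67 did not pass (-0.54 ± 0.28 and 0.01 ± 0.14, adjusted p = 0.122 and 0.976), while NUSAP1 was lower in senescence (-2.77 ± 0.29, adjusted p = 5.27e-06). E2F7 was 4.54 to 6.94 on low-serum arrays and higher in senescence by 5.40 ± 0.31 (adjusted p = 2.07e-08). Of 12 chemokines 8 were higher and 2 lower in senescence than in low serum, and the lower ones were CCL2 (-2.33 ± 0.60, adjusted p = 0.00506) and CXCL12. IL1B and MMP3 were higher, by 8.95 ± 0.10 and 8.90 ± 0.27 (adjusted p = 8.71e-15 and 6.29e-11). IL6 had 4.09 to 5.35 on low-serum arrays, below every senescent array, and a difference of 6.33 ± 0.24 (adjusted p = 4.1e-10).

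Growing and low-serum cells lay on opposite sides of senescent cells for several sterol genes and for ID1. Of 16 cholesterol synthesis genes, 9 were higher and 2 lower than in growing cells (median 0.51), while 0 were higher and 15 lower than in low serum by limma, at an adjusted or an unadjusted p under 0.05 (median -0.98). INSIG1, a sterol-regulated gene, had 8.93, 9.35 and 9.95 on senescent arrays, 10.10 to 11.03 on low-serum arrays and 6.65 to 7.60 on growing arrays. It thus lay between these states, with changes of -1.22 ± 0.17 against low serum (adjusted p = 6.17e-05) and 2.38 ± 0.17 against growing cells (adjusted p = 2.08e-07). ID1 was lower than in growing cells but higher than in low serum by 2.55 ± 0.29 (adjusted p = 9.92e-06). POSTN had 11.73 to 12.43 on low-serum arrays and its difference from low serum was not called (-0.06 ± 0.21, adjusted p = 0.827). COL15A1, PTN, MEST, an imprinted gene of mesenchyme, and VCAM1 were lower in senescence than in low serum, with differences of -8.61 ± 0.18, -6.68 ± 0.13, -6.79 ± 0.23 and -6.52 ± 0.40 (adjusted p = 1.64e-12, 6.56e-13, 1.74e-10 and 3.47e-08).

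Experiment 2 measured the senescent change again in vector cells, on arrays that the main comparison does not use. With 2 senescent and 2 growing arrays, 1588 genes were higher (18.7%) and 1751 lower (20.6%). The fit also held the 2 senescent shRB arrays of experiment 2, which add to its estimate of the spread between arrays. With 1 of the 4 arrays left out, 748 to 1653 were higher and 1072 to 1788 lower, lowest without a senescent array, and the shares below rest on all 4. Called higher in both were 1090 genes, which is 60% of those in experiment 1 and 68.6% of those in experiment 2. Called lower in both were 1454, which is 55.9% of those in experiment 1 and 83.0% of those in experiment 2, and 35 were called in opposite directions. Of the 1816 genes higher in experiment 1, 1691 also had a positive change in experiment 2, and of the 2602 lower, 2353 had a negative one. The labels do not say how the experiments differed.

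**Figure D5:**
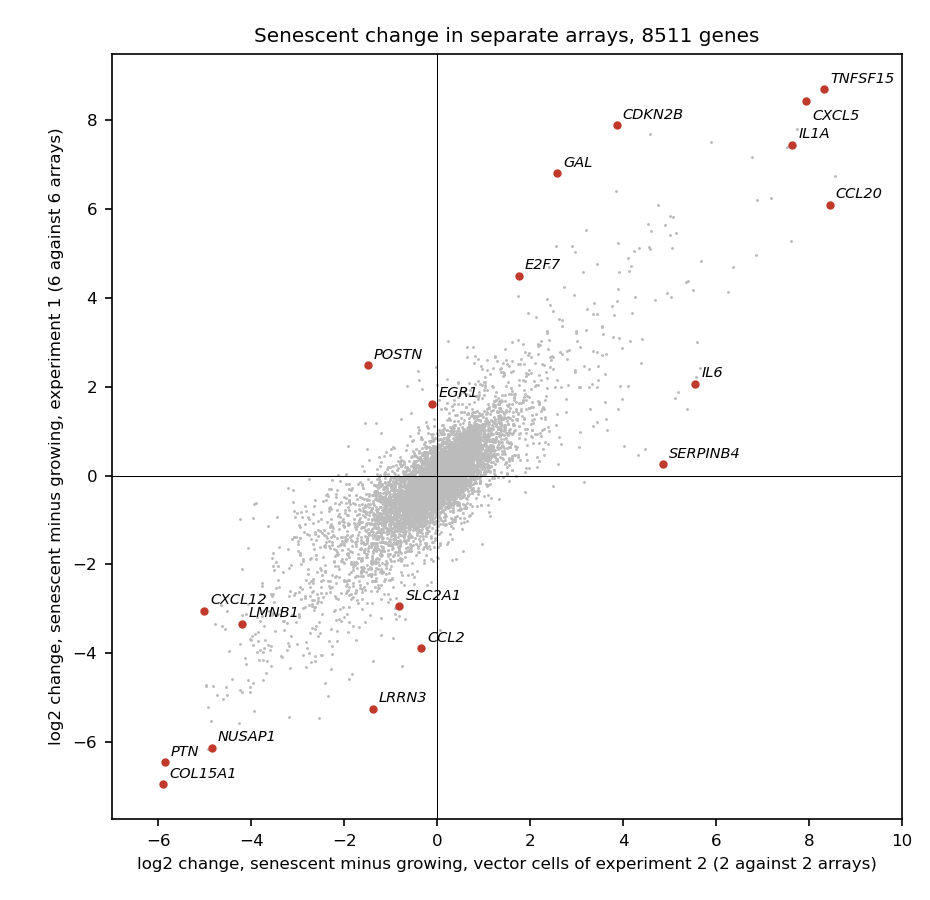
Log2 change (senescent minus growing) of 8511 genes in experiment 1 (y axis) against that in the vector cells of experiment 2 (x axis), with named genes in red. TNFSF15 and CXCL5 lie at the top right, COL15A1 and PTN at the bottom left, and POSTN in the quadrant of opposite signs.

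In the plot of both experiments, several of the largest changes recurred, while others kept their sign but were smaller in experiment 2. TNFSF15 rose by 8.32, CXCL5 by 7.94 and IL1A by 7.63 in experiment 2, beside 8.71, 8.43 and 7.45 in experiment 1. COL15A1, PTN and NUSAP1 changed by -5.90, -5.86 and -4.85, beside -6.95, -6.44 and -6.12. Among the smaller ones, LRRN3 had 7.055 and 6.62 on senescent and 8.40 and 8.04 on growing arrays of experiment 2. In experiment 1 it had 4.98 to 6.34 on RB-intact senescent and 10.36 to 11.47 on RB-intact growing arrays. NTN4 had 6.29 and 6.26 against 8.34 and 8.88 in experiment 2, and GPRC5A 5.78 and 6.02 against 8.29 and 8.60. Growing cells of experiment 2 were low for IL6, at 6.26 and 5.50, and senescent cells had 11.30 and 11.56, a change of 5.55 ± 0.25 (adjusted p = 1.52e-06).

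Some genes differed between experiments in direction or in call. POSTN had 10.15 and 9.84 on senescent and 11.60 and 11.39 on growing arrays of experiment 2, so that it fell there (-1.50 ± 0.18, adjusted p = 0.000327). CCL2 had 7.69 and 8.06 on senescent and 8.68 and 7.77 on growing arrays, a change of -0.35 ± 0.33 (adjusted p = 0.443). EGR1 was not called either (-0.10 ± 0.19, adjusted p = 0.697). SERPINB4 had 6.07 and 5.82 on senescent and 1.18 and 1.01 on growing arrays of experiment 2, where its growing levels lay below the 3.77 to 4.01 of experiment 1. It rose in experiment 2 (4.85 ± 0.19, adjusted p = 7.8e-07) and was not called in experiment 1. CDKN2B rose by 3.86 ± 0.24 (adjusted p = 6.28e-06), with growing levels of 6.22 and 5.59 that were above all growing arrays of experiment 1. GAL had 9.39 and 9.43 on senescent arrays and 7.34 and 6.33 on growing arrays of experiment 2, a rise of 2.58 ± 0.32 (adjusted p = 0.000364). The differences between experiments were not tested.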

How the data were processed

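Gene expression was measured on Affymetrix arrays from 1 µg of total RNA. The deposited values are log2 expression per probe set, made by the authors with GCRMA, a background correction and normalization between arrays, per the submitters' processing notes. Its version and how arrays were grouped are not given in the sources used here. Of 54613 probe sets, 41091 name 1 gene, 1801 several and 11721 none in the platform annotation, and each of 19775 genes was represented by its brightest probe set. Genes above 5 on at least 2 of 32 arrays of experiment 1 were tested with limma 3.58.1 in R 4.3.3, with hairpin as a block for the state comparisons and with group means for the others, and Benjamini-Hochberg adjustment over 8511 genes. The scripts were tested on simulated data. Promoters came from RefSeq, GRCh38.p14. Members and gene lists were chosen with earlier results of these data known. The text names the hairpin targets and RAS genes, CDK inhibitors and G1 genes, the largest rises and falls without overlap between states, up to 6 called members of each list, and the largest differences of the other comparisons. Other genes, among them MKI67, PCNA, RELA, CEBPB, NFKBIA and CXCR4, were named for their known roles after their values were seen. Alternatives were other filters, quantile normalization, median centring, mean probe sets, no hairpin block, a replicate block, other moderation, more arrays in the fit, single populations and single arrays left out. Fits without the 4 shp107 or the 4 shp130 arrays were added after seeing the data. Confluent and shRB low-serum arrays were used only in the filter and in fits with all groups.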

Additional observations from a re-analysis of the deposited data

Results flagged for a closer look

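Among 149 genes in each of 2 states, 18 of 298 sets of 6 arrays held an array far from the other 5 on a gap test, where chance gives about 1 in 20, and each set holds 3 populations of 2 arrays. Senescent shp107 replicate 2 was the array in 7 of them, with log2 levels of 8.36 for CDKN2A, 8.25 for CDK4, 9.22 for JMJD1C, 7.91 for CCL20, 4.90 for FOSL1, 12.51 for SLC6A15 and 8.81 for BCL2A1. Senescent shp107 replicate 1 stood apart at 9.54 for CXCL10, and senescent vector replicate 1 at 6.17 for ATM, 11.96 for IL6 and 12.10 for PTGS2. Among growing arrays, shp130 replicate 1 stood apart at 9.99 for CDKN1A and 7.90 for RPA2, shp107 replicate 1 at 11.36 for MMP1 and 7.75 for ID1, shp130 replicate 2 at 3.83 for ESM1 and 10.34 for RALA, and vector replicate 1 at 5.04 for HEY1.

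The senescent change differed between populations in limma's test of the difference itself, on the log2 scale. The change with shp107 minus that with the vector was 4.03 for HINT3, 2.71 for ACP3, 2.04 for ESM1, -2.54 for TIMM8B, -2.52 for CKS2, -2.36 for NAA38 and -2.24 for ROMO1. With shp130 minus the vector it was 3.56 for HINT3, 3.85 for CES1, 3.01 for NEFL, 2.78 for TMEM154, 1.90 for NEFM, -3.11 for EREG, -2.35 for CCNE2 and -2.23 for GBP1. With shp130 minus shp107 it was 4.21 for CRCT1, 2.85 for LSM5, -3.81 for GJB2, -3.40 for EREG and -2.62 for CXCL6.

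The RB-intact change minus the shRB change was -5.17 for SERPINB4, -4.97 for IL33, -4.79 for CXCL10, -4.43 for IL6, -4.11 for CXCL8 and -3.93 for CXCL1 among inflammatory genes. It was -4.06 for CCNE2, -3.95 for PCLAF, -3.36 for TYMS, -3.35 for HELLS, -2.60 for MCM6 and -2.48 for LMNB1, and it was 2.92 for PCDH9, 2.87 for NEFL, 2.69 for H2BC4, 2.69 for DDIT4L, 2.64 for GAS6 and 2.02 for MCOLN1. POSTN was higher on all senescent arrays of experiment 1 (2.49) and lower on both senescent arrays of experiment 2 (-1.50), and the difference between the experiments was not tested.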

How the results depend on the processing

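Over 8493 values of single genes under the alternatives, 7917 kept their direction and side of the threshold, 575 no longer passed and 1 reversed, which was HINT3 in vector cells alone (-0.20). Counts of calls stayed within 1.5 times of those reported in 132 of 192 cases. In vector cells alone 785 genes were higher and 1433 lower, and in shp130 cells alone 1079 were higher. With 16 groups over the 32 arrays of experiment 1, the change with shp107 and with shp130 differed from that of the vector for 100 and 14 genes. With vector cells alone as the RB-intact cells, 53 and 116 genes had a higher and a lower change than shRB cells. Leaving out 1 array at a time gave 1630 to 1917 genes higher and 2347 to 2715 lower in the main comparison. It gave 0 to 889 genes for shp107 against the vector, 0 to 16 for shp130 against the vector, 0 to 1378 for shp130 against shp107, 25 to 360 higher and 77 to 518 lower for RB-intact against shRB cells, 1885 to 2267 higher and 2716 to 3046 lower against low serum, and 748 to 1653 higher and 1072 to 1788 lower in experiment 2. The cause of these shifts was not tested. Same-numbered arrays of different groups deviated together with correlations of -0.188 to 0.164, so the replicate numbers were not taken as pairs. A fit with the replicate block called 1784 genes higher and 2566 lower in the main comparison. Leaving out 1 array leaves a group of 1, assumed to vary like the other groups. The senescent change of the named genes, apart from IL6, HRAS, HINT3, ORC5, TIMM8B and CKS2, lost its call at most in single populations or, for RBL1, also with the mean of probe sets (-0.10). Levels close to the array medians of 3.27 to 3.41 are near background, which limits the size of any change that starts or ends there.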

Other observations

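Metabolic and stress genes went both ways, and their counts moved with the scaling of the arrays. Of 22 glucose use genes 7 rose and 3 fell (median change 0.13), or 11 and 2 after centring each array on its median, and without centring 21.3% of all tested genes rose and 30.6% fell. The glucose transporter gene SLC2A1 had 5.16, 5.45 and 5.67 (lowest, median, highest log2 level) on senescent arrays and 7.86, 8.38 and 8.79 on growing arrays, a change of -2.93 ± 0.13 (adjusted p = 3.39e-09 in limma), while HK2, a hexokinase, had 10.61, 10.66 and 10.73 on senescent arrays and 8.48, 9.10 and 9.24 on growing arrays and rose by 1.65 ± 0.13 (adjusted p = 5.03e-07). Both kept the sign of these changes in experiment 2, at -0.81 ± 0.17 and 2.03 ± 0.24. Of 24 ribosome biogenesis genes 9 rose and 3 fell (median 0.26), or 12 and 3 after centring. POLR1B, a subunit of the polymerase that makes ribosomal RNA, had 7.82, 8.51 and 8.88 on senescent arrays and 6.47, 6.77 and 7.0 on growing arrays and rose by 1.62 ± 0.17 (adjusted p = 4.54e-06). Both lists stood higher against low serum, with medians of 0.60 and 0.64.

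Of 25 genes of the unfolded protein response and ATF4, 13 fell and 5 rose (median -0.40), or 8 and 7 after the same centring. ERN1, which encodes the stress sensor IRE1, had 6.27, 6.92 and 7.74 on senescent arrays and 4.28, 4.75 and 5.02 on growing arrays and rose by 2.33 ± 0.22 (adjusted p = 1.88e-06). SLC7A11, which imports cystine, had 6.37, 7.44 and 8.37 on senescent arrays and 9.95, 10.64 and 11.00 on growing arrays, with a change of -3.18 ± 0.27 (adjusted p = 8.46e-07). Of 22 antioxidant genes 10 fell and 3 rose (median -0.30), or 7 and 3 after centring, and the NRF2 target NQO1 had 8.59, 9.39 and 10.00 on senescent arrays and 11.07, 11.27 and 11.46 on growing arrays, with a change of -1.97 ± 0.21 (adjusted p = 6.86e-06).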
